A study of Bos taurus and Bubalus bubalis with 9 samples.

Results

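Myosin heavy chains are the motor proteins of the thick filament: the head binds actin and splits ATP, the neck carries the light chains, and the tails pack into the filament rod. Mammals carry a separate gene for each muscle form, and a fibre's speed of shortening goes with the form it holds. MYH7 encodes the slow form of slow-twitch fibres and heart ventricle, MYH6 the alpha form of heart muscle, MYH1, MYH2 and MYH4 the fast forms of fast-twitch fibres, and MYH3 the embryonic form. The genes lie in clusters of close copies. In the RefSeq annotation of the cattle assembly ARS-UCD2.0, of which only the gene order was used, MYH7 is followed by MYH6, and MYH8, MYH4, MYH1, MYH2 and MYH3 stand in one cluster with a further uncharacterised gene between MYH4 and MYH1.

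The 6 genes MYH1, MYH2, MYH3, MYH4, MYH6 and MYH7 were followed by name through the mRNA values of buffalo muscle and through the circular RNAs (circRNAs) of buffalo and cattle. Of 19917 mRNA transcripts in buffalo, 6795 had a name, and 4 of those named belonged to these genes. Of 4737 circRNAs in buffalo muscle, 3 had one of them as host, and of 18535 circRNAs in cattle muscle and adipose tissue, 16 did. MYH2 was paired with no identifier in any table, and MYH4 had values only as a circRNA host.

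The 9 libraries came from the longissimus dorsi muscle of 3 Xinyang buffalo (Bubalus bubalis, labelled low intramuscular fat), and from the same muscle and the back subcutaneous fat of Nanyang cattle (Bos taurus, labelled high intramuscular fat), with 3 libraries per group. Animals of both species were weaned at 3 months, castrated at 6 months, fattened from 18 months and slaughtered at 30 months. The labels name 3 cattle for the 6 cattle libraries and do not say which muscle and fat libraries share an animal. Reads of both species were aligned to the cattle genome UMD3.1, and the tables of the species were normalized separately, so values of buffalo and cattle are set side by side without a test.

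Library sizes recovered from the circRNA tables ran from 35712276 to 65777231 reads. Each library held between 4472 and 27141 back-splice junction reads, which are reads that cross the closing point of a circle. The tissue labels were compared with marker genes in the buffalo mRNA values, where ACTA1, the skeletal muscle actin, reached 31050 to 42565 FPKM (fragment counts scaled by transcript length and library size). The 8 adipocyte marker transcripts of 6 genes summed to 102, 150 and 117 FPKM in buffalo muscle 1 to 3, most of it LPL, and none of them was listed at 0 in all 3 animals.

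Among the heavy chain transcripts paired with a name, MYH7 was the highest in buffalo muscle. Only 6795 of the 19917 listed transcripts had a name, so heavy chains without one are not ranked here. The transcript ENSBTAT00000061306 stood at 4373, 3105 and 3015 FPKM in buffalo muscle 1 to 3, with a mean of 3497 ± 759 FPKM (SD, n = 3), which put it at rank 26 of all transcripts. Animal 1 was the highest and the other two lay close together. MYH7 took 0.368%, 0.310% and 0.304% of the FPKM sum of its library, and that sum was also highest in animal 1 (1186999, 1000417 and 991636). In whole tissue, fewer fibres of a type and less RNA per fibre cannot be told apart.

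MYH6 was the second named heavy chain in the order, at 321, 192 and 192 FPKM in ENSBTAT00000007359 (mean 235 ± 74.3 FPKM, SD, n = 3, rank 376). As for MYH7, animal 1 was the highest. MYH7 exceeded MYH6 13.6-fold, 16.2-fold and 15.7-fold in the 3 animals, or by 3.91 ± 0.13 on the scale of log2(FPKM + 1) (SD, n = 3), and the ranges of these transcripts did not overlap. MYH6 and MYH7 are close copies, so the division of reads between them in these values is uncertain.

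The other listed members had no value above 0. MYH1 (ENSBTAT00000009327) and MYH3 (ENSBTAT00000001120) were listed at 0 in buffalo muscle 1, 2 and 3, and the MYH4 transcript ENSBTAT00000061014 had no row in the values used here. So 2 of the 4 listed member transcripts were at 0, against 5.23% (1041) of all 19917 transcripts. A 0 in this table cannot be read as absence of the mRNA. Both listed transcripts of NEB, which encodes the giant thin filament ruler nebulin, were at 0 too, yet the circRNA with the highest mean in buffalo muscle came from NEB (chr2:44653304-44660629 in UMD3.1; 631, 697 and 613 junction reads). MYH1 likewise gave 2 junction reads in buffalo muscle 3, as described further on.

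**Figure D1:**
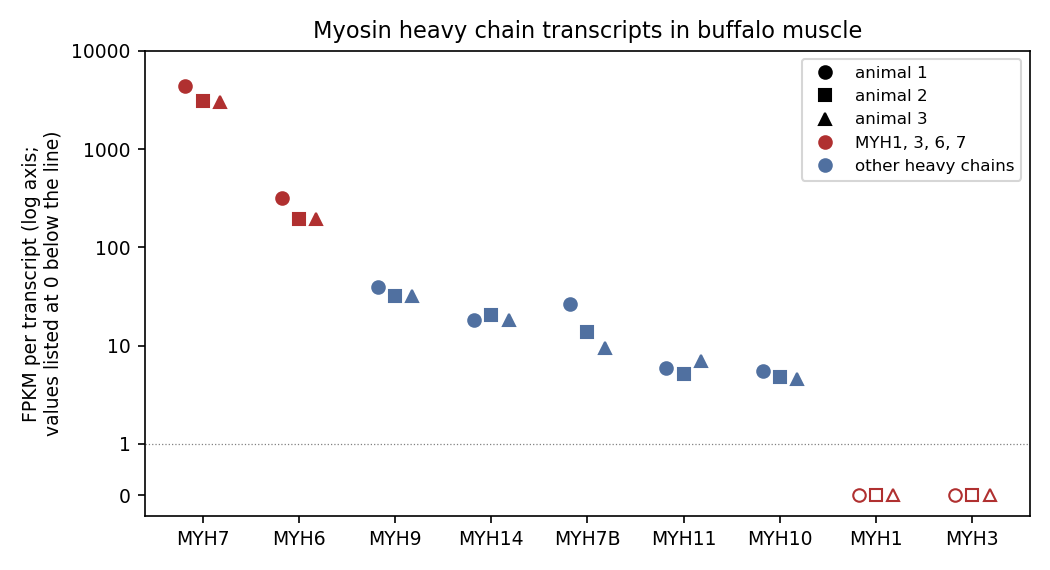
FPKM of each listed and named myosin heavy chain transcript in the 3 buffalo muscle libraries, on a log axis. Values listed at 0 are drawn below the dotted line, and symbols mark the animals. MYH7 (3015 to 4373 FPKM) and MYH6 (192 to 321 FPKM) lie above the heavy chains outside the 6 genes, and MYH1 and MYH3 are listed at 0 in each animal.

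Below MYH6 came the heavy chains outside the 6 genes, and the next was MYH9, a non-muscle form, at 31.7 to 39.6 FPKM. MYH7 was 93.7 to 110 times as high as MYH9, and MYH6 5.98 to 8.11 times as high. The non-muscle form MYH14 (18.2 to 20.3 FPKM) and MYH7B, a slow-type relative of MYH7 (26.5, 13.8 and 9.38 FPKM), overlapped, with MYH14 above MYH7B in 2 of 3 animals. The smooth muscle form MYH11 (5.12 to 7.0 FPKM) and the non-muscle form MYH10 (4.62 to 5.47 FPKM) overlapped as well, and MYH11 was the higher of this pair in 3 of 3 animals. MYH8, the perinatal form, had no row. Of the 7 named heavy chains above 0, MYH7, MYH6, MYH7B and the non-muscle forms MYH9 and MYH10 (5) were highest in animal 1. So were 39.1% of all transcripts above 0. Divided by the FPKM sum of the library, 4 remained highest there, without MYH10, and 20.9% of all transcripts.

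The light chains that sit on the heavy chain neck were listed at levels above MYH7 in part. MYLPF, the fast regulatory light chain, reached 29288, 25610 and 29073 FPKM, and MYH7 stood at 0.149, 0.121 and 0.104 of it. MYL2, the slow regulatory light chain, stood at 5913, 6204 and 4776 FPKM, with MYH7 at 0.739, 0.500 and 0.631 of it. MYL1, the fast essential light chain, was listed at 2131 to 2620 FPKM, below MYH7. The fast regulatory light chain thus exceeded the slow one 4.13-fold to 6.09-fold. Of the fast heavy chains, MYH1 was listed at 0, MYH4 had no row and MYH2 was paired with no transcript, so their levels are not known. TNNI2, the fast inhibitory troponin subunit, exceeded the slow TNNI1 by a similar margin, 3.82-fold to 6.17-fold. The myosin binding proteins C went the other way, with the fast MYBPC2 at 0.536 to 0.717 of the slow MYBPC1. The troponin T genes, each listed as several transcripts, did not show a fast excess in their main transcripts. The slow TNNT1 transcript with the highest mean was at 1784 to 1973 FPKM, and that of the fast TNNT3 at 911 to 1553 FPKM. The pairs thus gave no common direction.

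Among the thick filament partners, MYBPC1, the slow myosin binding protein C, lay closest to MYH7, with 3318, 3259 and 2968 FPKM and a MYH7 to MYBPC1 ratio of 1.32, 0.953 and 1.02. MYBPC2, the fast form, was at 1746 to 2206 FPKM, and MYOM2, an M-band protein that cross-links thick filaments, at 389 to 560 FPKM. Genes that serve the folding of the heavy chain or phosphorylate its light chain were lower than MYH7 in every animal. The highest were the light chain kinase MYLK2 (425 to 485 FPKM), the myosin chaperone UNC45B (167 to 185 FPKM) and SMYD1, a methyltransferase needed for sarcomere assembly (130 to 194 FPKM). MYH6, at 192 to 321 FPKM, lay between UNC45B and MYLK2 and overlapped SMYD1. On the thin filament, ACTA1 was the highest, and MYH7 stood at 0.0778 to 0.103 of it. TNNI2 (3818 to 6265 FPKM) and a TPM1 transcript (3826 to 5560 FPKM), the latter encoding alpha-tropomyosin, were above MYH7 in 3 of 3 animals.

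Levels of the adipocyte markers were low beside MYH7. LPL, which releases fatty acids from lipoproteins, was at 92.0, 129 and 98.1 FPKM, the fatty acid carrier FABP4 at 3.97, 8.20 and 7.99 FPKM, and the adipokine ADIPOQ at 0.776, 7.40 and 5.77 FPKM. These 3 were lowest in animal 1, in which MYH7 and MYH6 were highest, whereas the main transcript of PPARG, the master regulator of adipocytes, was highest there (4.13, 1.77 and 2.83 FPKM). The part of adipocytes in the spread of MYH7 between animals was not tested.

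**Figure D2:**
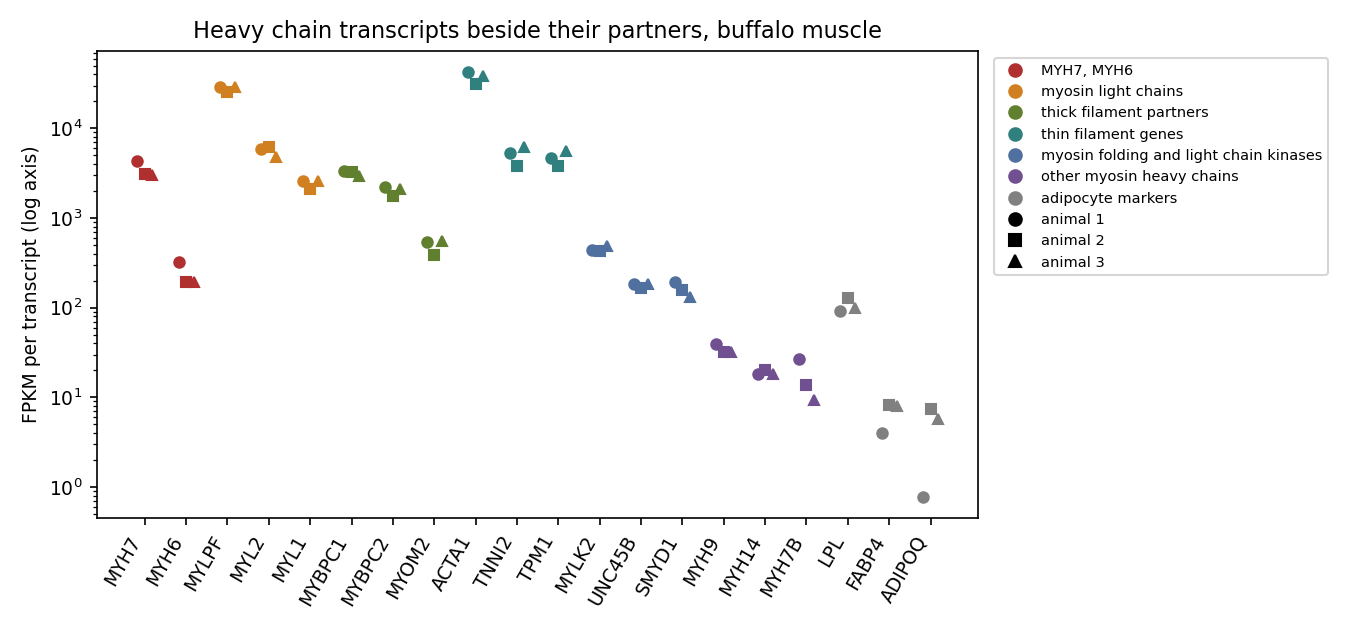
FPKM on a log axis for MYH7, MYH6 and, from each partner list, the 3 transcripts with the highest mean, in the 3 buffalo muscle libraries. MYH7 lies among the myosin binding proteins and slow light chain, about as high as MYBPC1, and MYH6 lies among MYLK2, UNC45B and SMYD1.

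The circRNAs were examined next. Their values are RPM (junction reads scaled to 1000000 reads of the library) for each back-splice junction, and 1 read was worth 0.0152 to 0.0280 RPM. The reads themselves could be recovered as whole numbers, and they are given here because the members rest on few of them. In buffalo muscle the 3 member junctions held 40 of 15890 junction reads. In cattle, the 16 member junctions held 33 of 111737.

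Nearly all of the buffalo reads came from a single junction between MYH7 and MYH6. It ran over chr10:21333554-21361063 (plus strand, 27510 bp, UMD3.1), was typed as exon and intron, and also listed the microRNA gene bta-mir-208b, which is known as an intronic passenger of MYH7. It had 13, 11 and 12 reads, or 0.198, 0.173 and 0.200 RPM, in buffalo muscle 1 to 3, with a mean of 0.190 ± 0.0151 RPM (SD, n = 3). The 3 animals were close to each other, and the mean ranked 34 among the 4737 circRNAs. The identical junction was the only member junction found in both species, and in cattle it had 1 read in cattle muscle 1 and none in the other 5 libraries. Without cattle muscle 1, no member junction was shared. Over all circRNAs, 2231 junctions were shared by buffalo and cattle muscle, 47.1% of those in buffalo and 18.6% of those in cattle.

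The other buffalo junctions were at the limit of detection. One joined MYH7 and MYH6 over chr10:21344635-21374691, with 1, 1 and 0 reads. Another lay within MYH1 exons at chr19:30117162-30119172 (minus strand, 2011 bp), with 0, 0 and 2 reads. MYH3 and MYH4 hosted no buffalo junction.

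In cattle, the junction with the most reads again joined MYH7 and MYH6, but between other ends. It spanned chr10:21341691-21370439 (28749 bp) and had 0, 11 and 0 reads in the muscle libraries numbered 1 to 3 and 0, 2 and 0 in the adipose libraries. All its reads thus came from the libraries numbered 2, and its mean of 0.0868 ± 0.150 RPM in cattle muscle (SD, n = 3) was ranked 990 of 11998 circRNAs detected there. These 2 reads were the only member reads in adipose tissue. Cattle muscle 2 had no read at the junction that led in buffalo.

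The remaining cattle junctions were each seen in 1 library, with one exception. MYH6 had an exonic junction at chr10:21360940-21361480 with 0, 0 and 3 reads in muscle, and the end of the leading buffalo junction, at position 21361063, lies inside it. MYH7 had exonic junctions at chr10:21326810-21327730 and chr10:21327622-21329931, with 2 reads each, both in cattle muscle 3. The exception was a junction of MYH1 with a neighbouring gene at chr19:30113799-30141076, with 0, 1 and 1 reads in cattle muscle 1 to 3. The other 11 junctions had 1 read each, among them the one shared with buffalo and those that joined MYH4 and MYH1. MYH4 was host to 3 junctions in cattle, each with 1 read and each joined to MYH1, and MYH3 to none.

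**Figure D3:**
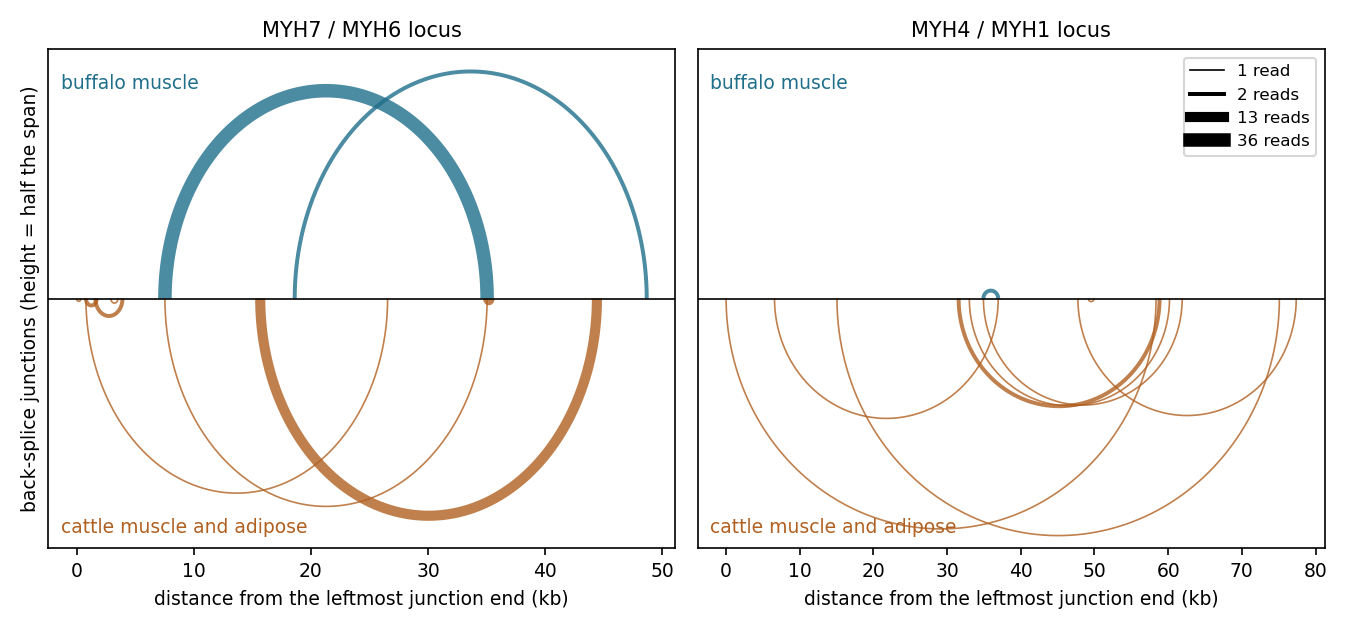
Back-splice junctions of the members at the MYH7 and MYH6 locus (left) and the MYH4 and MYH1 locus (right), drawn as arcs between their ends against distance in kb, buffalo above and cattle below the line; line width grows with the log2 of the reads. The thickest arcs, with 36 reads in buffalo and 13 in cattle, join MYH7 and MYH6 between different ends.

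The member junctions differed in kind from the bulk of the circRNAs. In cattle, 10 of the 16 member junctions (62.5%) listed 2 or more genes, against 0.496% of all circRNAs, and in buffalo 2 of 3 did, against 0.528%. In reads, junctions between a pair of the 6 genes held 38 of 40 in buffalo (95%) and 18 of 33 in cattle (54.5%). Only 6 cattle junctions, with 10 reads and spans of 368 to 2310 bp, lay within a single member. The median span was 27080 bp for the cattle members, against 10100 bp over all cattle circRNAs. Junctions of the exon type were 18.8% of the cattle members and 87.5% of all, and those typed as exon and intron were 62.5% and 7.77%. Single reads supported 68.8% of the cattle member junctions and 39.0% of all, while in buffalo they supported 0 of 3 member junctions and 55.1% of all. These are descriptions of 16 and 3 junctions that partly share ends, and no test was made. Since the genes are close copies of each other, a read that fits several of them may have been placed on either, and how the circRNAs were called is not given in the sources used here.

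Some ends recurred. The start of the buffalo MYH1 junction, at position 30117162 of chromosome 19, was also the start of a cattle junction that ran on to position 30144147 in the next gene. Its end, at position 30119172, was the end of a cattle junction between MYH4 and MYH1. On chromosome 10, position 21326810 started 2 cattle junctions, one within MYH7 and one from MYH7 to MYH6. The gene that shared junctions with MYH1, ENSBTAG00000007090, has no symbol in the tables and is therefore not counted as a member. It hosted 9 further cattle junctions of its own, with 24 reads, all in muscle, the highest at chr19:30143951-30145202 with 0, 8 and 3 reads in cattle muscle 1 to 3. The counts, shares and tissue ratios of the members leave these reads out. With them, cattle muscle would hold 55 reads in place of 31. By position, ENSBTAG00000007090 lies past MYH1 on the side away from MYH4, where MYH2 stands in the RefSeq order. Since MYH2 was paired with no identifier, whether this gene is MYH2, and whether MYH2 was a host, is not known here.

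As a share of all junction reads, the members made up 0.264%, 0.196% and 0.313% in buffalo muscle 1 to 3 (mean 0.258% ± 0.0588, SD, n = 3), from 14, 12 and 14 reads. In cattle muscle the share was 0.0259%, 0.0553% and 0.0548% (mean 0.0453% ± 0.0168, SD, n = 3), from 4, 15 and 12 reads. Counting ENSBTAG00000007090 with the members, the cattle muscle share would be 0.0518%, 0.107% and 0.0822% (mean 0.0803% ± 0.0276, SD, n = 3). In cattle adipose tissue it was 0.00950% in library 2 and 0 in the others, where 0 of 12042 and 0 of 14160 reads allow shares of up to 0.0249% and 0.0212% by the limit of 3 reads, and of 0.0306% and 0.0260% by the exact interval. The exact (Clopper-Pearson) 95% intervals of the shares reached from 0.101% to 0.525% over the buffalo libraries and from 0.00706% to 0.0957% over the cattle muscle libraries, and cover counting error only. In RPM, the summed members stood at 0.212 ± 0.0225 RPM in buffalo muscle and 0.266 ± 0.139 RPM in cattle muscle (SD, n = 3 each), while the cattle muscle libraries held 15440 to 27141 junction reads and the buffalo libraries 4472 to 6122. The libraries of the species thus overlapped in RPM (0.188 to 0.233 and 0.106 to 0.355) and did not overlap as a share of junction reads. A single junction held 36 of the 40 buffalo reads, and the junction reads that the shares are divided by did not overlap either. How many other hosts separate in this way was not counted, so the separation cannot be read as a trait of the members.

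**Figure D4:**
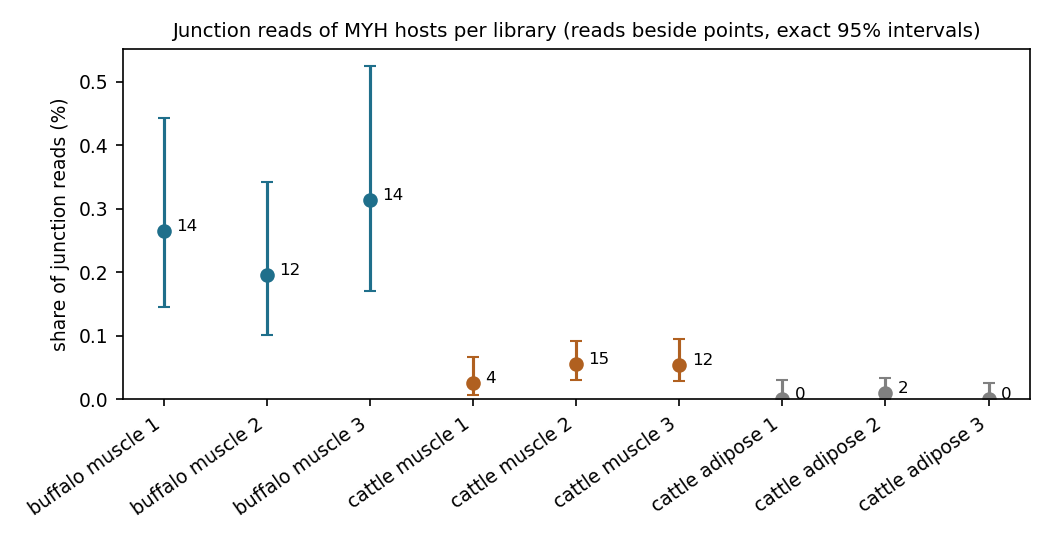
Share of each library's back-splice junction reads that came from the members, in percent, with exact 95% intervals and the number of member reads beside each point. The buffalo muscle libraries lie at 0.196% to 0.313%, the cattle muscle libraries at 0.0259% to 0.0553% and the cattle adipose libraries at 0 to 0.00950%; the tables of the species were normalized separately.

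Cattle muscle and cattle adipose tissue share a table, so they could be compared directly. The members had 31 reads in muscle and 2 in adipose tissue. The 4, 15 and 12 reads of muscle, or 0.106, 0.355 and 0.336 RPM, lay above the 0, 2 and 0 reads of adipose tissue, or 0, 0.0538 and 0 RPM. The share of all hosts that separate the tissues in this way was not counted. Pooled over the libraries of each tissue, reads per library total were 15.1-fold higher in muscle, with a counting interval of 3.85-fold to 130-fold that leaves out the spread between animals. Both adipose reads came from cattle adipose 2, and without that library no member read remained in adipose tissue and no ratio could be formed. By locus, MYH6 and MYH7 together gave 22 and 2 reads, and MYH1 with MYH4 gave 9 and 0. With adipose tissue set at 3 reads over the group, the ratio for MYH1 with MYH4 was 2.92. It takes the 9 muscle reads as exact and leaves out the spread between animals, so it is not a lower bound. The single junctions did not enter the main test, since 0 of 16 reached 2 reads in 3 libraries. Without this filter, limma gave each of the 16 an adjusted p of 0.576. Of the 1917 circRNAs that passed the filter, 59 (3.08%) were higher and 3 (0.156%) lower in muscle by limma. With RPM rescaled to junction reads, the numbers were 63 and 33.

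Junction reads were then summed for each host gene and tested over all 1921 hosts with enough reads, with limma on log2(RPM + 1). By this test 55 hosts (2.86%) were higher and 17 (0.885%) lower in muscle at an adjusted p below 0.05. With RPM rescaled to the junction reads of each library, the numbers were 73 and 68. Of the 6 genes, 3 entered the test. MYH1 reached 2 reads in 3 libraries only through its muscle libraries. MYH7 also reached this in its muscle libraries alone, so a higher value in muscle was built into the entry of both. MYH6 entered with the help of cattle adipose 2. A junction that lists several genes counted for each, so MYH6 and MYH7 share most of their reads. None of the 3 was called. MYH7, with 2, 13 and 4 reads in muscle and 0, 2 and 0 in adipose tissue, was higher in muscle by 0.18 (log2 scale, SE 0.0888, limma adjusted p = 0.396). MYH6, with 1, 12 and 3 against 0, 2 and 0 reads, differed by 0.15 (SE 0.0909, limma adjusted p = 0.524). MYH1, with 2, 2 and 5 against 0, 0 and 0 reads, differed by 0.11 (SE 0.0581, limma adjusted p = 0.437). MYH4, with 1, 1 and 1 against 0, 0 and 0 reads, did not enter. The size of these differences was set by the pseudocount, since no member exceeded 0.308 RPM in a library. With a pseudocount of 0.1 they were 1.03 for MYH7, 0.85 for MYH6 and 0.81 for MYH1. Fitted to the reads, the log2 fold changes were 3.00 for MYH7, 2.74 for MYH6 and 4.66 for MYH1 by edgeR with TMM, and 3.18, 2.91 and 3.98 by DESeq2. The fitted values of MYH1, which had no adipose read, are no bound on its fold change.

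At an unadjusted p below 0.05, limma found 0 of the 3 member hosts, limma with a pseudocount of 0.1 found 1 (MYH7), DESeq2 1 (MYH7) and edgeR with TMM 3, where the same limit was passed by 15.8%, 18.1%, 13.7% and 17.8% of all hosts. MYH6 and MYH7 are not separate cases in these counts, since they share reads. MYH1 and MYH7 met the read minimum through muscle alone, which favoured small p-values in that direction. The counts can therefore not be read as an excess over the shares of all hosts. No tool called one after adjustment, with edgeR adjusted p-values of 0.0904 for MYH1, 0.139 for MYH7 and 0.217 for MYH6. Without cattle muscle 2, the library with the 11 reads at the junction between MYH7 and MYH6, the difference of MYH7 was 0.09 with a limma adjusted p of 0.764, and MYH1 and MYH6 no longer entered the test. With host totals from junctions that list 1 gene only, an alternative chosen after seeing the data, no member entered.

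The partner genes were sparse hosts as well, but some were far more abundant. MYL1, MYBPC1, MYOM1, MYLK2 and NEB reached the read minimum through their muscle libraries only, so a higher value in muscle was built into their entry. Of the 11 light chain genes, MYL1 alone entered, with 184, 267 and 195 reads in muscle and none in adipose tissue, and was higher in muscle by 2.71 (log2 scale, SE 0.0857, limma adjusted p = 8.3e-06). Of the 10 thick filament partners, MYBPC1 and MYOM1 entered. MYBPC1 had 293, 389 and 412 against 0, 0 and 0 reads and was higher by 3.38 (SE 0.124, limma adjusted p = 1.6e-05), while MYOM1 had 6, 30 and 14 against 0, 0 and 0 reads and missed the threshold (0.49, SE 0.132, limma adjusted p = 0.117). MYLK2 was the only one of 8 folding and kinase genes to enter and was higher in muscle by 0.47 (limma adjusted p = 0.0264). Of the thin filament hosts, NEB was higher by 4.33 (607, 968 and 691 against 0, 1 and 0 reads, limma adjusted p = 5.8e-06), and 2 gene identifiers under the name TPM1 did not pass. MYH10, the other heavy chain that entered, differed by 0.04 (SE 0.0724, limma adjusted p = 0.852). In the other direction PPARG, the only adipocyte marker of 10 to enter, had 0, 0 and 3 reads in muscle and 17, 23 and 22 in adipose tissue and was lower in muscle by 0.59 (limma adjusted p = 0.00647). It met the read minimum through its adipose libraries, so this direction too was built into its entry. The median difference was 0.15 over the 3 member hosts and 0.00 over all 1921. The member median is the value of MYH6, which shares most of its reads with MYH7. Since MYH1 and MYH7 met the read minimum through muscle alone, a positive member median was largely built in.

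**Figure D5:**
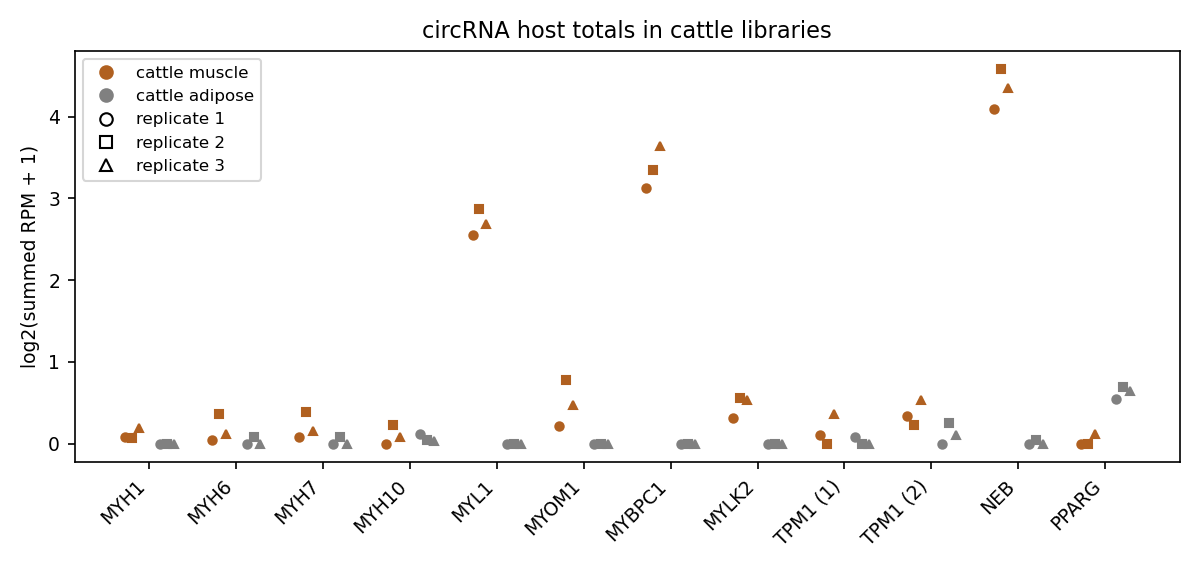
Summed RPM of each tested circRNA host among the members and the partner lists, as log2(RPM + 1), in the 3 muscle (brown) and 3 adipose (grey) libraries of cattle. MYH1, MYH6 and MYH7 reach at most 0.308 RPM in any library, whereas MYL1, MYBPC1 and NEB are at 4.87 RPM or more in each muscle library.

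The hosts whose pattern over the 6 cattle libraries was most like that of the summed members, by Pearson's r of log2(RPM + 1), were PALLD, an actin-associated protein (r = 0.990), ENSBTAG00000006491, which has no symbol (r = 0.988), ENSBTAG00000007090, the neighbour of MYH1 (r = 0.986), ABCC9, the regulatory subunit of a potassium channel (r = 0.986), and MEMO1 (r = 0.984). The neighbour of MYH1 shares junctions with it, so its likeness is in part the same reads. Each of the 5 had its most reads in cattle muscle 2, as the members did. These values describe 6 points that fall into tissue groups, and 5.31% of the 1921 hosts had an r above 0.9.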

How the data were processed

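Values of 9 libraries were used, grouped by the species, tissue and number in the sample titles. Per the labels and the paper's methods, the authors trimmed reads with Trim Galore, aligned both species to UMD3.1 with STAR and quantified with Cufflinks 2.2.1 and Cuffdiff. The deposited mRNA table gives FPKM per transcript, and the deposited circRNA tables give RPM per back-splice junction. In these tables, 6 columns of samples outside this series were not used, and the lncRNA table was left out.

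Each RPM value was a whole multiple of the smallest value of its column (100% within 0.01), from which reads and library totals were recovered. Symbols were taken from the circRNA tables and, as names only, from the study's gene lists (6795 of 19917 transcripts). The 6 genes and the 7 gene lists were chosen with earlier results of these data known. The text names all member transcripts, the member junctions seen in both species or among the 3 highest per host and group, the 3 highest transcripts and the extreme hosts of each list, and the 5 hosts most like the members.

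Cattle muscle and adipose tissue were compared with limma 3.58.1 (R 4.3.3) on log2(RPM + 1), for features with at least 2 reads in at least 3 of 6 libraries, with Benjamini-Hochberg adjustment over all features and a threshold of 0.05. Alternatives were edgeR 4.0.16, DESeq2 1.42.0, other pseudocounts, filters and scalings, and leaving out libraries. The code was tested on simulated counts. For host totals, limma recovered 1.5% of simulated 4-fold changes and 63.3% of 16-fold changes, with 10% and 2.56% of its calls false. With edgeR, 15.7% and 99% were recovered, with 6% and 3.10% of calls false. A host that was not called may thus still differ between the tissues. No reference sequence was used.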

Additional observations from a re-analysis of the deposited data

How the results depend on the processing

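The buffalo levels of MYH7 and MYH6 and the difference between them moved by less than the SD of the animals with a pseudocount of 0.1 and with FPKM rescaled to sum to 1000000. The pseudocount can hardly move values this high, and rescaling can hardly move a difference within a library. Leaving out a library, which cannot move a mean of 3 by a whole SD, gave mean shares of junction reads of 0.230% to 0.289% in buffalo muscle, 0.0403% to 0.0550% in cattle muscle and 0 to 0.00475% in cattle adipose tissue, where the value is 0 without library 2, and a difference of MYH7 and MYH6 of 3.86 to 3.99 (log2). Adjusted p-values over the alternatives ran from 0.0904 to 0.596 for MYH1, from 0.217 to 0.732 for MYH6 and from 0.139 to 0.764 for MYH7. No alternative that gave a member an adjusted p called it. MYH1 did not enter when any cattle muscle library was left out. MYH6 did not enter without cattle muscle 2, cattle muscle 3 or cattle adipose 2. With at least 5 reads in 3 libraries, no member entered. DESeq2 gave no adjusted p for MYH1 and MYH6. The shared junction count between the species ranged from 0 to 1 when one library was left out.

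Counts over all features moved more. Host totals higher and lower in muscle numbered 55 and 17 by the main test, 100 and 33 with a pseudocount of 0.1, 27 and 11 without a filter, 73 and 68 rescaled to junction reads, 131 and 42 by edgeR with TMM, 95 and 30 by edgeR without TMM, 99 and 32 by DESeq2, and 18 to 39 and 7 to 13 when one library was left out. For single circRNAs, 59 and 3 became 106 and 17 with the pseudocount of 0.1, 34 and 2 without a filter, 69 and 8 with at least 5 reads, 63 and 33 rescaled to junction reads, 137 and 26 by edgeR with TMM, 102 and 11 by edgeR without TMM, 87 and 18 by DESeq2, and 15 to 47 and 1 to 4 when one library was left out. Fewer samples and fewer features tested enter into the last of these; otherwise the cause was not tested.

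The replicate numbers do not tie libraries to animals in the labels, and deviations of same-numbered muscle and adipose libraries correlated between -0.0203 and 0.215, with 2 of 3 muscle libraries correlating best with their own number. With the number as a replicate block, 54 hosts were higher and 17 lower, 71 circRNAs were higher and 15 lower, and the adjusted p-values were 0.298 for MYH7, 0.403 for MYH6 and 0.479 for MYH1. Most member junctions rest on 1 read, and 1 to 3 reads in a library do not separate tissues.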
